A study of Rattus norvegicus with 10 samples.

Results

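Mmp9, Wif1 and Myoc encode 3 proteins that cells secrete, and their transcripts were followed in rat supraoptic nuclei (SONs) after knockdown of the transcription factor Creb3l1. They were selected on their measured values in the knockdown comparison, Mmp9 and Wif1 because their counts were lower and Myoc because its counts were higher. Their differences between the groups are therefore given as a description, with no test. The 3 genes are rows of a table of 32402 genes, and all 10 SONs in the series were used.

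The SONs came from 5 male Sprague Dawley rats that weighed 250-274 g when purchased, and whose age is not given in the sources used here. Every SON received an adeno-associated virus from the same GFP-carrying plasmid backbone, so that the controls carried a virus and an shRNA too. The 5 libraries marked L had the non-targeting shRNA (control) and the 5 marked R the shRNA to Creb3l1 (knockdown), each rat giving one SON to either group, so that side and treatment cannot be told apart. Punches of 1 mm were taken after 3 weeks. Libraries numbered 1 to 5 in either group share an animal code in the labels and are given as animals 1 to 5. A punch holds transduced and untransduced neurones, glia and vessels.

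The SON contains magnocellular neurones, which make vasopressin or oxytocin and release them in the posterior pituitary, and its glia, matrix and synapses are remodelled when hormone demand rises. Mmp9 is gelatinase B, a secreted zinc endopeptidase that cuts denatured collagens and collagen IV, and is known in the brain for pericellular proteolysis around synapses. Wif1, Wnt inhibitory factor, binds Wnt ligands outside the cell and keeps them from their Frizzled receptors. Myoc, myocilin, is a secreted glycoprotein with an olfactomedin domain that is best known from the outflow tissue of the eye, where mutant forms cause glaucoma. Creb3l1 is a transcription factor anchored in the endoplasmic reticulum membrane, and is cleaved to an active form that enters the nucleus.

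Promoter sequences are shown because Creb3l1 acts on DNA, with the stretch from 250 bases before to 50 bases after the annotated start taken from RefSeq (GRCr8). Those of Wif1 and Myoc were in the RefSeq table used, and that of Mmp9 was not analysed here. The Wif1 promoter lies at chr7:58433329-58433628 and the Myoc promoter at chr13:77509713-77510012, both on the plus strand. Capitals mark the motif letters that were found, and the printed strand runs 5′ to 3′.
Wif1: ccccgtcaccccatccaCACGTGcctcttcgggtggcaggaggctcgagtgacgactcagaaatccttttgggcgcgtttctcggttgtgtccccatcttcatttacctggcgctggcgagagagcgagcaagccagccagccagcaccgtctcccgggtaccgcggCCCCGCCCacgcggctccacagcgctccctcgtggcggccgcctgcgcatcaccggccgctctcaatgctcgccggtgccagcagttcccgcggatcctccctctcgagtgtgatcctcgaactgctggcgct
Myoc: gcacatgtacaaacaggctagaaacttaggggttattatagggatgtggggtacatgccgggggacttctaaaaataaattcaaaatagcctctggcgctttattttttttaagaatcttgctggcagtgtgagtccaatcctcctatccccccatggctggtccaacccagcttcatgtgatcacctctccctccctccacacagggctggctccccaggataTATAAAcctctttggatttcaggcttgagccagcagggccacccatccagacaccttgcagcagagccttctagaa
The 5 motifs searched on both strands were CACGTG and ACGTCA, which are core letters of sites that factors of the CREB3 family can bind, the GC box CCCCGCCC, the TATA box TATAAA, and TGAGTCA, the AP-1 site known from protease promoters. None of the matches overlapped another.

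The promoters of Wif1 and Myoc differed in composition. The Wif1 window had 67.0% G and C with 32 CpG dinucleotides, which put it at percentile 86.5 for G and C and percentile 91.0 for CpG among 27457 rat promoters. The Myoc window had 49.3% G and C with 2 CpG dinucleotides, at percentiles 39.3 and 13.1. CACGTG stood in the Wif1 window with its first letter at -233 from the start, and 6.65% of all promoters hold these letters. CCCCGCCC was at -83 in Wif1, a motif found in 16.3% of promoters, and TATAAA was at -26 in Myoc, a motif found in 14.3%. ACGTCA (8.22% of promoters) and TGAGTCA (4.53%) were in neither window, which says only that these letters are not there.

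The libraries held 29020948 to 34382889 counts, and 16286 genes had enough counts to be tested. Levels are given as CPM, counts scaled to the library total with TMM factors, as mean ± SD over 5 SONs. The intervals given beside single SONs are exact 95% Poisson intervals, which cover counting error only. Creb3l1 itself was at 26.9 ± 5.35 CPM in control and 12.0 ± 3.96 CPM in knockdown SONs, so that 44.6% of its level was left. Its levels did not overlap between the groups (20.3 to 33.5 against 7.1 to 16.7 CPM), and it was lower in the knockdown SON of 5 of 5 animals. Permuting the group labels in all 252 ways, without regard to the animal (exact test, two-sided), gave p = 0.00794. Exchanging them within animals only, as fits the paired SONs, left 32 arrangements and gave an exact two-sided p of 0.0625, the smallest that 5 pairs allow. Its log2 fold change in the edgeR quasi-likelihood fit was -1.16 (SE 0.24), with a Benjamini-Hochberg adjusted p of 0.0173, and of 0.0586 with the animal as a block. Over all genes tested, 4.49% were past the threshold as lower and 3.36% as higher, and with the animal as a block 0.0553% were past it in either direction. The share of called genes that were higher was 42.8%, and 23.6% when libraries were scaled by their totals alone.

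Mmp9 (ENSRNOG00000017539) had the largest difference of the 3 genes. In control SONs 1 to 5 it was at 10.1, 4.96, 8.59, 7.03 and 6.86 CPM, from 300, 166, 299, 234 and 233 counts. In knockdown SONs 1 to 5 it was at 0.474, 0.372, 1.03, 0.721 and 1.06 CPM, from 15, 12, 31, 20 and 33 counts. The groups stood well apart, and the lowest control was 4.65 times the highest knockdown level. The means were 7.52 ± 1.95 and 0.733 ± 0.315 CPM, so that 9.75% of the control level was left, a 10.3-fold lower level (log2 fold change -3.35, SE 0.32). The transcript was still counted in all knockdown SONs. The lowest of these, at 0.372 CPM, had an interval of 0.192 to 0.650, which lay below the interval of the highest (0.733 to 1.5 around 1.06 CPM). In a punch of mixed tissue, fewer cells of a type and less RNA per cell cannot be told apart, and this holds for all values given here.

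The control SONs were not uniform for Mmp9. Control SON 2 was the lowest, and the highest control was 2.05 times its level, where the coefficient of variation was 26.0% against 6.37% from counting alone. Among knockdown SONs the coefficient of variation was 43.0%, against 21.2% from counting, with the highest 2.86 times the lowest. The biological coefficient of variation that edgeR fitted to the gene was 0.331. This was higher than in 82.9% of all genes tested, and than in 70.8% of those within 2-fold of its mean CPM. By size of fold change, Mmp9 was number 12 of the 7130 genes that were lower in knockdown SONs. Of 2406 other genes whose mean CPM was within 2-fold of its own, 2 were lower by as much.

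Wif1 (ENSRNOG00000004476) was lower by a smaller factor and was more even. Control SONs 1 to 5 were at 15.0, 11.1, 11.7, 14.7 and 13.0 CPM, from 372 to 490 counts. Knockdown SONs 1 to 5 were at 4.01, 4.0, 4.29, 3.71 and 2.48 CPM, from 77 to 129 counts. The groups did not overlap, and the lowest control was 2.59 times the highest knockdown level. The means were 13.1 ± 1.75 and 3.7 ± 0.71 CPM, with 28.2% of the control level left, a 3.54-fold lower level (log2 fold change -1.82, SE 0.16). Knockdown SONs 1 to 4 lay between 3.71 and 4.29 CPM, and SON 5 was the lowest. The coefficient of variation was 13.4% in control and 19.2% in knockdown SONs, against 4.82% and 9.41% from counting. The fitted biological coefficient of variation, 0.209, was higher than in 53.9% of genes, and than in 44.8% of those within 2-fold of its mean CPM. Wif1 was number 52 of the 7130 lower genes, and 6 of 3358 other genes within 2-fold of its mean CPM were lower by as much.

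Myoc (ENSRNOG00000003221) went the other way, from few counts. Control SONs 1 to 5 were at 0.879, 0.925, 0.948, 0.842 and 0.913 CPM, from 26, 31, 33, 28 and 31 counts. Knockdown SONs 1 to 5 were at 2.97, 2.23, 2.8, 3.82 and 2.13 CPM, from 94, 72, 84, 106 and 66 counts. Every knockdown SON was above every control SON, and the lowest knockdown level was 2.25 times the highest control level. The means were 0.901 ± 0.0419 and 2.79 ± 0.679 CPM, a 3.09-fold higher level (log2 fold change 1.62, SE 0.19). The spread among controls, a coefficient of variation of 4.64%, was smaller than the 18.3% that counting alone gives at this depth, so it says little of how control animals vary. Knockdown SONs had a coefficient of variation of 24.3%, against 10.9% from counting. Myoc was number 23 of the 9156 genes that were higher in knockdown SONs, and 6 of 1895 other genes within 2-fold of its mean CPM were higher by as much.

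Groups without overlap were themselves not rare: 5.5% of all genes tested had every knockdown SON below every control SON, as Mmp9 and Wif1 did, and 4.16% had every knockdown SON above, as Myoc did. Since the 3 genes were chosen on this contrast, nothing is read from their place in these shares.

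**Figure D1:**
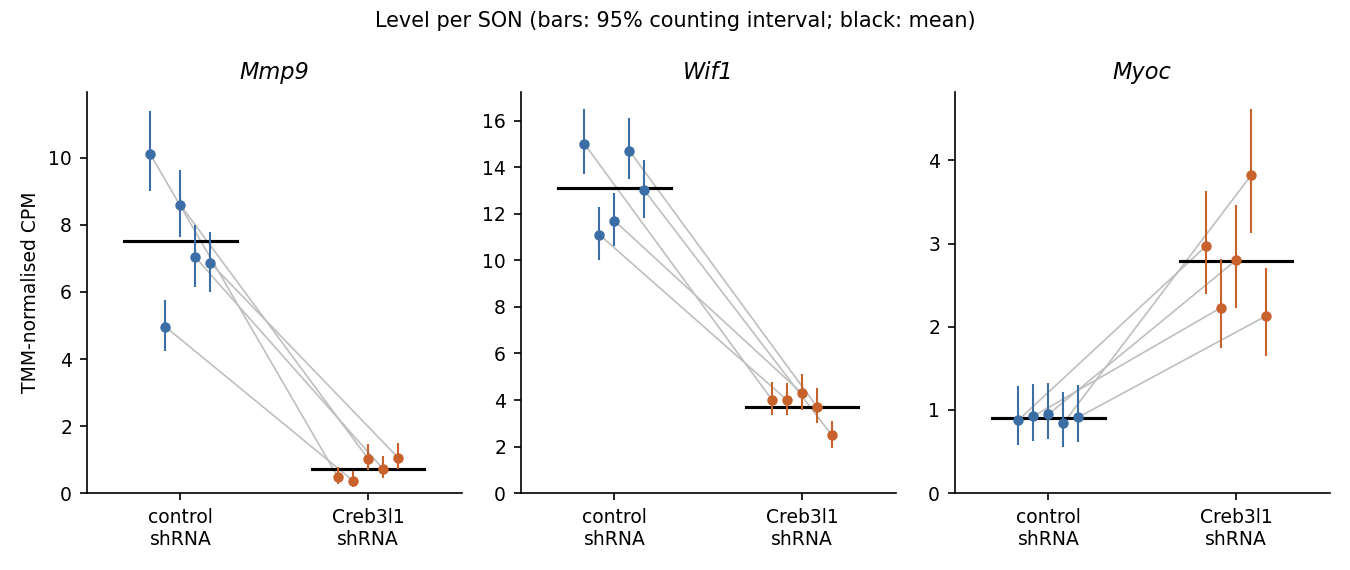
Level of Mmp9, Wif1 and Myoc in TMM-normalised CPM (y axis, starting at 0, its own scale for each gene) in 5 control SONs (blue) and 5 knockdown SONs (orange), with exact 95% counting intervals as vertical bars, group means as black bars and grey lines joining the SONs of 1 animal. No group overlaps for any of the 3 genes, and the Myoc controls lie closest together, between 0.842 and 0.948 CPM.

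Within animals, the knockdown SON kept 4.67%, 7.51%, 12.0%, 10.3% and 15.5% of the control SON's Mmp9 in animals 1 to 5. For Wif1 it kept 26.7%, 36.0%, 36.6%, 25.2% and 19.1%. Myoc stood at 338%, 241%, 295%, 454% and 233% of the control SON. The mean log2 difference over animals was -3.44 ± 0.67 for Mmp9, -1.84 ± 0.39 for Wif1 and 1.6 ± 0.39 for Myoc, and -1.21 ± 0.44 for Creb3l1. The direction was shared by 5 of 5 animals for each gene, which follows from groups without overlap. The animals did not keep 1 order of size.

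Animal 5 had the smallest log2 difference in Creb3l1 (-0.78), in Mmp9 (-2.69) and in Myoc (1.22), but the largest in Wif1 (-2.39). Animal 3 had the largest Creb3l1 difference, at -1.82, with differences of -3.06 in Mmp9, -1.45 in Wif1 and 1.56 in Myoc. Animal 1 had the largest Mmp9 difference, at -4.42, and animal 4 the largest Myoc difference, at 2.18. With 5 SONs in a group, a relation between the size of the Creb3l1 knockdown and that of the other genes cannot be tested.

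**Figure D2:**
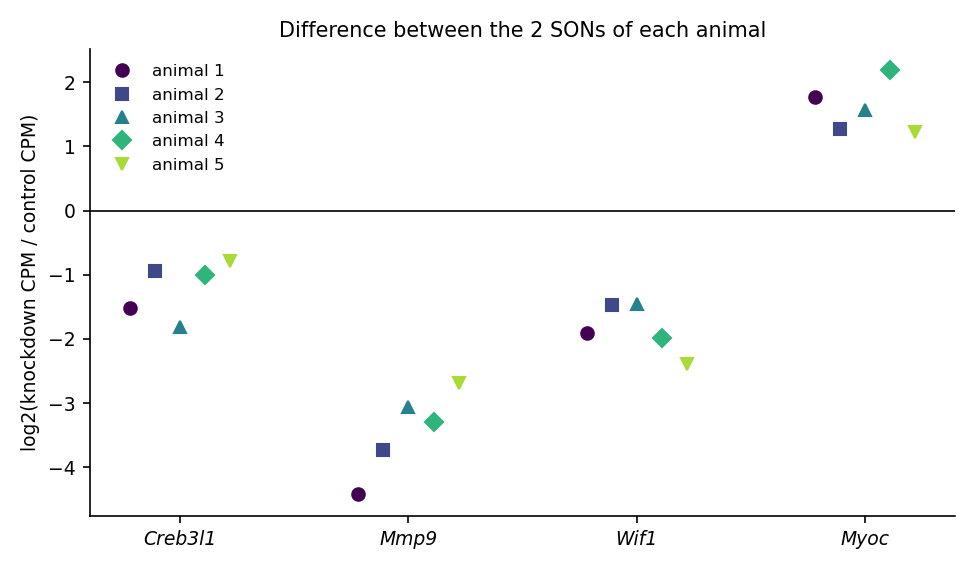
Log2 ratio of the knockdown SON's CPM to the control SON's CPM (y axis) for Creb3l1, Mmp9, Wif1 and Myoc (x axis), 1 symbol per animal. All points of Creb3l1, Mmp9 and Wif1 lie below 0 and all of Myoc above 0, and animal 5 (yellow-green) is nearest to 0 in Creb3l1, Mmp9 and Myoc but farthest from it in Wif1.

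Over the 10 SONs the log2 levels of Mmp9 and Wif1 had a Pearson correlation of 0.92, those of Mmp9 and Myoc of -0.93, and those of Wif1 and Myoc of -0.91. These values mostly restate the difference between the groups that chose the genes. When each SON was set against its own group mean, the correlations were -0.17, -0.01 and 0.3 in the same order, and with Creb3l1 they were -0.03 for Mmp9, -0.37 for Wif1 and -0.01 for Myoc. Inside the groups the 3 genes therefore had no strong common order of SONs, as a description over 10 SONs of 5 animals.

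Other genes came closer to the pattern of each. Among 14817 genes at 1 CPM or more on average, and of those that could be named, Cbwd1 (r = 0.991), Cnot11 (0.989), a subunit of the CCR4-NOT deadenylase, and Hps6 (0.983), a subunit of a complex for lysosome-related organelles, were most like Mmp9 over the 10 SONs. Their log2 fold changes were -0.67, -0.45 and -0.44, smaller than that of Mmp9. Cdk15 (r = 0.99), a protein kinase, Perp (0.985), a membrane protein of desmosomes, and RGD1560436 (0.985) were most like Wif1. Cdk15 was at 2.79 ± 0.758 CPM in control and 0.261 ± 0.138 CPM in knockdown SONs, and Perp at 8.01 ± 0.915 and 2.43 ± 0.75 CPM. Zbtb25 (r = 0.987), a zinc finger protein, Psmd1 (0.984), a proteasome subunit, and Rbm15b (0.979), an RNA-binding protein, were most like Myoc, with log2 fold changes of 0.63, 0.53 and 0.58.

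Once the group means were taken off, other names led, though for each member a gene without a name was closer still. Gpat4 was only number 8 of all genes for Myoc. The genes that could be named were those of smallest adjusted p in the study's own test, so they were picked by their change between the groups. Of the genes that could be named, Srpk1 (r = 0.942), a kinase of splicing factors, LOC361635 (0.939) and Gpn1 (0.904), a GTPase, followed Mmp9 most closely. Rtl1 (0.967), an imprinted retrotransposon-derived gene, Dhx40 (0.96), a helicase, and Rxfp1 (0.953), the relaxin receptor, followed Wif1. MGC116121 (0.926), Bpnt1 (0.919), a nucleotidase, and Gpat4 (0.899), an enzyme of glycerolipid synthesis, followed Myoc. Between the groups, Dhx40 (log2 fold change 0.37) went the other way from Wif1, and Bpnt1 (-0.34) and Gpat4 (-0.19) the other way from Myoc. The rest of these genes changed in the direction of their member. None of the names stood in both sets, and each r is the highest of many that were searched over 10 SONs.

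**Figure D3:**
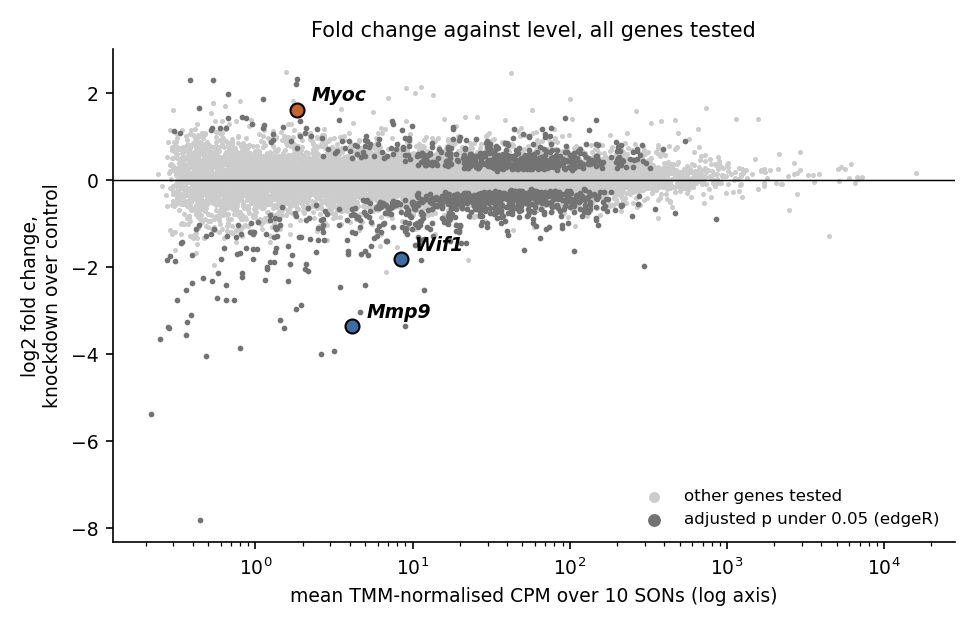
Log2 fold change of knockdown over control (y axis) against mean CPM over 10 SONs (x axis, log scale) for the 16286 genes tested, with genes past an adjusted p of 0.05 in dark grey and Mmp9, Wif1 and Myoc labelled. Mmp9 at -3.35 and Wif1 at -1.82 lie near the lower edge of the cloud at their levels, and Myoc at 1.62 near the upper edge.

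The surroundings of the 3 genes were described from lists of matrix proteases and their inhibitors, extracellular matrix, the Wnt pathway and olfactomedin-domain proteins, 207 genes in all without the members. The count table gives identifiers only, and gene names were taken from a shortened table of the study in which the genes of smallest adjusted p come first. So 16 of the 207 genes could be named, and the others, among them Mmp2, Mmp14, the Timp genes, Plat, Lrp5, Lrp6, Sfrp1, Frzb, Dkk3, Axin2 and all olfactomedin-domain relatives of Myoc, were not analysed here. The study's own test on these SONs picked the 16, so their counts are not independent evidence and cannot be read against the 4.49% and 3.36% of all genes. Of the 16, 7 were past the threshold, 3 lower and 4 higher, and 9 were not. None of them was past it by the adjusted p once the animal was a block, and 15 had an unadjusted p under 0.05 in the same edgeR test. The median log2 fold change was -0.91 over the 2 named protease genes, -0.37 over the 7 matrix genes and 0.5 over the 7 Wnt genes, beside 0.04 over all genes tested. These medians are of genes picked by their change, so they too cannot be read against that of all genes.

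On the protease side, where Mmp9 belongs, 1 of the 2 named genes passed. Serpini1, neuroserpin, a neuronal inhibitor of tissue plasminogen activator, fell from 200 ± 12.6 to 133 ± 16.7 CPM (log2 fold change -0.59, SE 0.10, adjusted p = 0.00794 with edgeR's quasi-likelihood test, 0.0923 with the animal as a block). Its control SONs were at 191, 208, 195, 189 and 218 CPM and its knockdown SONs at 134, 140, 149, 137 and 105 CPM, with no overlap. Plaur, the receptor of urokinase on the cell surface, was at 8.8 ± 3.49 in control and 3.75 ± 1.92 CPM in knockdown SONs, lower in 4 of 5 animals (edgeR adjusted p = 0.0715). Without knockdown SON 5 its adjusted p was 0.0259.

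Of the 7 named matrix genes, 2 were past the threshold, both higher in knockdown SONs. Dag1, dystroglycan, which ties laminin to the cell membrane, rose from 185 ± 15.6 to 250 ± 21.5 CPM (edgeR log2 fold change 0.44, SE 0.09, adjusted p = 0.0161, 0.108 with the animal as a block). Its call was lost without knockdown SON 2 (adjusted p = 0.0601), control SON 2 (0.0504) or control SON 3 (0.0536). Has1, a hyaluronan synthase, rose from 2.77 ± 0.237 to 4.66 ± 1.1 CPM (edgeR log2 fold change 0.75, SE 0.19, adjusted p = 0.0385, 0.115 with the block). Of the 10 edgeR fits that left out 1 SON, 2 kept Has1 past the threshold. The call was lost without knockdown SON 1 (adjusted p = 0.104), 2 (0.0894), 3 (0.0508) or 4 (0.0829), or control SON 1 (0.0636), 2 (0.0765), 3 (0.0933) or 5 (0.0971).

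The other matrix genes did not pass. Col4a2, a chain of collagen IV, a known substrate of the Mmp9 protein, was at 122 ± 19.1 in control and 89.2 ± 12.3 CPM in knockdown SONs (edgeR adjusted p = 0.0513). Lama4, a laminin chain, was at 48.3 ± 6.14 and 37.4 ± 4.0 CPM (0.0591). Bgn, biglycan, was at 180 ± 26.0 and 248 ± 42.5 CPM (0.0705). Vcan, versican, a hyaluronan-binding proteoglycan, was at 95 ± 20.5 and 65.4 ± 11.9 CPM (0.0798). Hapln3, a link protein between hyaluronan and proteoglycans, was at 3.07 ± 1.1 and 1.67 ± 0.555 CPM (0.101). These 5 genes lay on both sides of 0. Leaving out knockdown SON 4 took Col4a2 to an adjusted p of 0.036 and Lama4 to 0.0437, and leaving out control SON 2 took Lama4 to 0.0373 and Vcan to 0.0308.

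In the Wnt pathway, where Wif1 acts on the ligands, 4 of 7 named genes were past the threshold. Wnt16, a ligand, fell from 29.7 ± 5.7 to 10.8 ± 4.01 CPM (edgeR log2 fold change -1.45, SE 0.25, adjusted p = 0.00949, 0.0921 with the animal as a block). Its control SONs 1 to 5 were at 38.1, 24.7, 24.0, 30.8 and 30.7 CPM and its knockdown SONs at 6.35, 15.5, 11.9, 13.4 and 7.0 CPM. No knockdown SON reached a control SON, and the call held in 10 of 10 fits that left out 1 SON. Apcdd1, a membrane protein that inhibits Wnt signalling, fell from 78.4 ± 3.15 to 55.7 ± 5.78 CPM (edgeR log2 fold change -0.49, SE 0.08, adjusted p = 0.00598, 0.0783 with the block).

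The other called Wnt genes were higher. Gsk3a, one of the paired kinases that mark beta-catenin for breakdown, rose from 108 ± 10.2 to 154 ± 11.5 CPM (edgeR log2 fold change 0.50, SE 0.08, adjusted p = 0.00808, 0.092 with the animal as a block). Fzd3, a Frizzled receptor, rose from 13.2 ± 2.93 to 22.0 ± 3.22 CPM (edgeR log2 fold change 0.74, SE 0.16, adjusted p = 0.0233, 0.112 with the block). The Fzd3 call was lost in 5 of 10 fits without 1 SON, namely without knockdown SON 1 (adjusted p = 0.0664) or 2 (0.0725), or control SON 1 (0.0505), 3 (0.0587) or 5 (0.0653). Gsk3b, the other kinase, was at 62.5 ± 11 in control and 44.6 ± 7.51 CPM in knockdown SONs (edgeR adjusted p = 0.0641). It passed without knockdown SON 3 (0.0211) or control SON 1 (0.033).

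The ligand Wnt5a was at 16.6 ± 3.32 in control and 24.1 ± 3.25 CPM in knockdown SONs (edgeR adjusted p = 0.0549, and 0.0387 without control SON 4). Rspo1, a secreted protein that strengthens Wnt signalling, was at 1.91 ± 0.461 and 2.97 ± 0.517 CPM (edgeR adjusted p = 0.0859). By log2 fold change, past the threshold or not, the ligands Wnt16 and Wnt5a thus lay on either side of 0, as did the kinases Gsk3a and Gsk3b. The receptor Fzd3 and Rspo1 were higher, and the inhibitor Apcdd1 was lower.

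**Figure D4:**
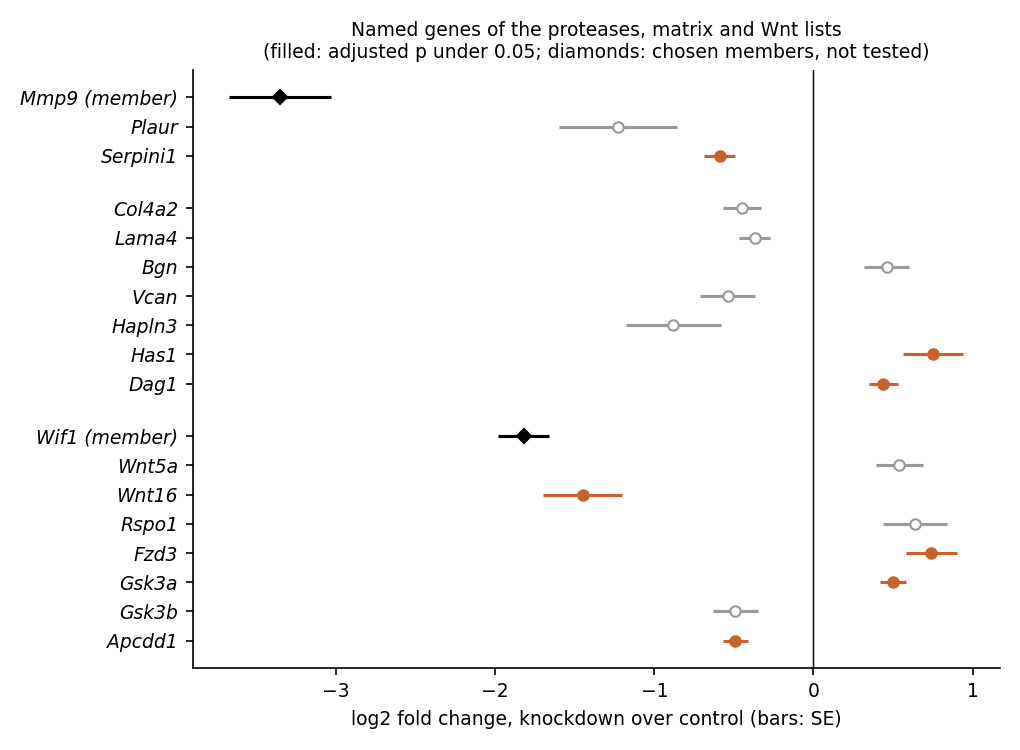
Log2 fold change of knockdown over control with its SE (x axis) for the 16 named genes of the protease, matrix and Wnt lists, filled circles being past an adjusted p of 0.05 in edgeR's quasi-likelihood test and open circles not. Diamonds give Mmp9 and Wif1, which were chosen on this contrast and not tested. Both members lie farther from 0 than any of the 16 genes, the next being Wnt16 at -1.45.

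Markers of the cells in the punch could be checked only in small part. Of 95 marker genes, 4 were named, and those of astrocytes, oligodendrocytes, microglia, neutrophils, lymphocytes, endothelium and mural cells, with vasopressin and oxytocin, were not analysed here. The study's own test on these SONs picked the 4 named markers, so they do not stand for their lists. From the magnocellular list 3 of 8 genes were named, and their summed level was 400 to 701 CPM in control and 49.8 to 320 CPM in knockdown SONs. Most of this sum was Pdyn, with 470 of 551 CPM on average in control SONs. Pdyn, which encodes prodynorphin and is expressed with vasopressin, fell from 470 ± 108 to 120 ± 87.2 CPM (edgeR log2 fold change -1.97, SE 0.48, adjusted p = 0.0331, 0.093 with the animal as a block). Its call held in 3 of 10 fits without 1 SON, and was lost without knockdown SON 1 (0.0934), 2 (0.0819) or 4 (0.0645), or control SON 1 (0.0527), 3 (0.0684), 4 (0.0613) or 5 (0.0715). Sim1, a transcription factor that these neurones need to form, fell from 55.3 ± 11.1 to 24.5 ± 8.1 CPM (edgeR log2 fold change -1.18, SE 0.23, adjusted p = 0.0136, 0.0711 with the block). Cartpt, which encodes the CART peptides, was at 26.0 ± 6.98 and 11.6 ± 8.39 CPM (edgeR adjusted p = 0.102), and its adjusted p was 0.00289 without knockdown SON 3.

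Pdyn and Sim1 fell in 5 of 5 animals, as Mmp9 and Wif1 were lower, and Cartpt was lower in 4 of 5. Their part in the differences of Mmp9 and Wif1 was not tested. Pdyn and Sim1 were lowest in knockdown SON 5, at 27.4 and 15.6 CPM, as was Wif1 at 2.48 CPM, whereas Mmp9 was highest there at 1.06 CPM. Igf2, the only named marker of meningeal or vascular fibroblasts out of 8, was at 565 ± 94.1 in control and 780 ± 109 CPM in knockdown SONs, higher in 5 of 5 animals as Myoc was (edgeR adjusted p = 0.0823), and its part in the Myoc difference was not tested.

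Of the 6 nearest annotated genes on either side of the members in the GRCr8 order, 1 could be named in the counts. This was Vamp4, next to Myoc, a membrane protein of vesicle fusion. Vamp4 was at 102 ± 5.19 in control and 77.8 ± 14.6 CPM in knockdown SONs, lower in 5 of 5 animals, while Myoc was higher (edgeR log2 fold change -0.38, SE 0.12, adjusted p = 0.0808). The genes beside Mmp9, Zfp335 and Slc12a5, and those beside Wif1 were not analysed here. The span of a long non-coding RNA overlaps that of Wif1 in GRCr8, and overlap of their exons was not checked. The strand setting of the counting is not given in the sources used here. Whether reads of this RNA were counted for Wif1 therefore cannot be told.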

How the data were processed

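RNA was measured in SON punches by poly(A) RNA-seq with a stranded kit. The authors used STAR for alignment to Rn6 and featureCounts for the number of reads per gene. The deposited values are these raw counts, without normalisation, and the authors compared the groups with DESeq2 1.28.1. The strand setting is not given in the sources used here. No deposited column was left without a sample. The header of the deposited counts was offset from its values, so columns were assigned by position and checked against the study's normalised counts. The group came from the library titles. Between replicates of the same group, chi-square over its degrees of freedom was at least 29.09, so no library was a copy of another in its group. Control and knockdown libraries were not compared in this way.

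Here, counts of 24286 genes with at least 1 count were filtered with filterByExpr (minimum count 10), scaled by TMM (factors 0.9561 to 1.075) and fitted with edgeR 4.0.16 in R 4.3.3 (glmQLFit, glmQLFTest, Benjamini-Hochberg adjustment over 16286 genes, threshold 0.05). Log2 levels used a prior count of 2. The SE beside a log2 fold change is the size of that change divided by the square root of its quasi-likelihood F statistic. The scripts were tested on simulated data. Totals were 29754252 to 34382889 counts in control and 29020948 to 33612965 in knockdown libraries. P-values measure the spread between SONs of 5 animals.

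Members and gene lists were chosen with earlier results of these data known. Named genes were the members, Creb3l1, per list up to 6 genes of largest change past the threshold, a set of close partners where named, the 3 genes most like each member by either measure, and the neighbours. The other list and marker genes that had a name were chosen after their values were seen. Names came from a shortened table of the study with 1998 identifiers, of which 1989 were tested, and 1271 of 1280 called genes had one. Its normalised counts served only to check which count column belonged to which SON. The values of the authors' comparisons were not used.

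The labels say that each animal served as its own control. The L and R libraries of 1 replicate number also share an animal code, which gave the replicate block. Deviations from the group means of same-numbered SONs correlated at r = -0.117, 0.45, -0.44, -0.324 and -0.549 for numbers 1 to 5. The alternatives were RLE factors, library size only, no filter, DESeq2 1.42.0, the replicate block and leaving out each SON.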

Additional observations from a re-analysis of the deposited data

Results flagged for a closer look

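No group of Mmp9, Wif1 or Myoc had a SON set apart from the others. Of 48 groups of 5 SONs checked with Dixon's test, 4 had one, and chance gives about 1 in 20. Col4a2 was at 156 CPM in control SON 4, with the other controls at 111 to 116 CPM. Has1 was at 2.74 CPM in knockdown SON 5, with the others at 4.73 to 5.34 CPM. Gsk3b was at 58.0 CPM in knockdown SON 3, with the others at 40.7 to 42.1 CPM. Cartpt was at 26.2 CPM in the same SON, with the others at 6.57 to 11.2 CPM.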

How the results depend on the processing

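The groups of Mmp9, Wif1 and Myoc did not overlap, so leaving out 1 SON could not reverse a direction. A kept direction is therefore no support for the differences. The log2 fold changes of the 3 genes kept their direction in all 15 alternatives and moved by less than 1 SD between SONs. Over the 5 alternatives with all SONs they were -3.41 to -3.36 for Mmp9, -1.89 to -1.84 for Wif1 and 1.56 to 1.61 for Myoc, and over the 10 that left out 1 SON -3.55 to -3.19, -1.91 to -1.74 and 1.46 to 1.68. Counts of genes past the threshold moved more, and the cause was not tested. Of all genes tested, 1280 were called, against 2188 with DESeq2, 9 with the replicate block (pairing the SONs of 1 animal), 1321 with RLE factors, 1480 with library size only, 950 without a filter, and 519 (without knockdown SON 1) to 1699 (without knockdown SON 3) with 1 SON left out. Other counts more than 1.5 times lower were 614 without knockdown SON 2, 834 without knockdown SON 4, and 817, 558 and 613 without control SON 2, 3 or 5. For the protease list the call of 1 became 2 with DESeq2, 0 with the block and 1 to 2 with 1 SON left out, being 2 without knockdown SON 5. For the matrix list the 2 became 7 with DESeq2, 4 with library size only, 1 without a filter, 0 with the block and 0 to 3 with 1 SON left out, being 0 without knockdown SON 2 or control SON 3. For the Wnt list the 4 became 7 with DESeq2 and 0 with the block, where the edgeR test gave unadjusted p under 0.05 for 2, 6 and 7 genes of the lists in this order. The names came from genes picked by DESeq2, so all 16 pass with it. For Creb3l1, the exact permutation p of 0.00794 became 0.0625 when labels were exchanged within animals, an alternative chosen after seeing the data. Depth limits the precision of Mmp9 in knockdown SONs most, at 12 to 33 counts, and then that of Myoc in control SONs, at 26 to 33 counts.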
